A study of Homo sapiens with 6 samples.

Results

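The 8 cadherin genes of chromosome 16, CDH1, CDH3, CDH5, CDH8, CDH11, CDH13, CDH15 and CDH16, were set against H3K9me3 domains, broad stretches that carry this histone mark of silent chromatin. They are 8 of 857 protein-coding genes of chromosome 16 and of 20033 in all (GENCODE 44 on hg38). The group was chosen by family and chromosome with the domain calls at CDH8 and CDH11 already known, so the position of these genes relative to domains is given as a description and was not tested. Chromatin was immunoprecipitated from monolayers of MCF10.DCIS.com, a breast cell line with oncogenic H-RAS that models ductal carcinoma in situ. Control cells carried the empty lentiviral vector pSLIK-neo-EV and RAB5A cells carried the inducible pSLIK-neo-RAB5A. Both were stable lines obtained by infection and antibiotic selection and grown in the same medium. The vector responds to doxycycline, and the time of induction for these libraries is not given in the sources used here. RAB5A is a GTPase of early endosomes, and its elevated expression sets jammed epithelial monolayers in motion. Each condition was assayed once with the antibody ab176916 and once with ab8898, giving 4 libraries and n = 2 per condition. The antibody is thus the only replicate, and nothing in the labels says that the libraries came from separate cultures. The lists give no expression, so the labelled cell type could not be checked against its markers, and they give no read counts, so the depth of each library is unknown.

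Cadherins are calcium-dependent adhesion proteins that join neighbouring cells through repeated extracellular domains and, in the classical types, hold the actin cytoskeleton through catenins. Epithelial cells use E-cadherin above all, and carcinoma cells that become mesenchymal often exchange it for other cadherins. H3K9me3 is bound by HP1 proteins and marks compact, mostly silent chromatin, much of it at the nuclear lamina. A domain call reports the mark over large distances and says nothing by itself about the transcription of a gene in it.

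Of the 8 genes, CDH8 alone lay wholly inside a domain, and it did so in 4 of 4 libraries. CDH11 was touched by the edge of the same domain in both ab176916 libraries and in neither ab8898 library. The other 6 genes lay at least 1.37 Mb from any domain in every library. Where 4 values are listed, those of control precede those of RAB5A, and within each condition ab176916 precedes ab8898. The number of members with at least 1 bp in a domain was 2, 1, 2 and 1. Among all protein-coding genes the same criterion was met by 7.38%, 7.73%, 7.40% and 8.32%, among the autosomal ones by 4.54%, 4.83%, 4.59% and 4.80%, and among those of chromosome 16 by 4.55%, 5.37%, 4.55% and 5.02%. The transcription start was in a domain for 1 member, CDH8, in each library, against 7.20%, 7.57%, 7.21% and 8.15% of all protein-coding genes and 4.08%, 5.13%, 4.08% and 4.78% of those of the chromosome. The whole body was in a domain for 1 member, again CDH8, against 7.05%, 7.42%, 7.06% and 8.00% of all and 3.97%, 5.02%, 3.97% and 4.67% on the chromosome. The counts were the same in control and RAB5A cells with each antibody.

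**Figure D1:**
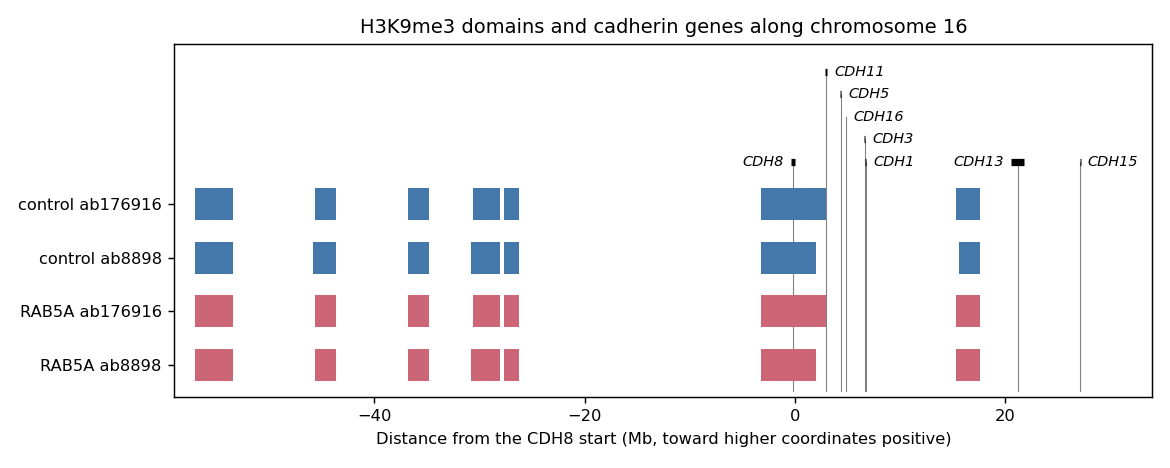
H3K9me3 domains (bars) of chromosome 16 in the 4 libraries and the 8 cadherin genes (black marks and grey lines), by distance in Mb from the start of CDH8. Each library has 7 domains, of which the one that holds CDH8 ends 1 Mb earlier with ab8898 than with ab176916.

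CDH8 encodes cadherin-8, a type II classical cadherin known for its part in synaptic contacts of the brain. It is on the minus strand at chr16:61647242-62037035 (ENSG00000150394.14), spans 389.8 kb and has 12 exons in its canonical transcript. In each library 100% of its body was covered. The domain around it spanned 16:58800001-65000000 (6.2 Mb) in the control ab176916 library and in the RAB5A ab176916 library. It spanned 16:58800001-64000000 (5.2 Mb) in the control ab8898 library and in the RAB5A ab8898 library. The limit toward the short arm was thus the same in 4 of 4 libraries, and the other limit followed the antibody and not the condition. CDH8 lay well inside it, 2.85 Mb from the limit toward the short arm. From the other limit it was 2.96 Mb (ab176916) or 1.96 Mb (ab8898) away. Both distances are many times the 200 kb bin that sets the resolution of the calls.

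Control and RAB5A cells had the same mean length of this domain, 5.7 ± 0.707 Mb (SD over the 2 libraries of a condition). RAB5A minus control was 0 Mb with each antibody, against a difference of 1.0 Mb, or 5 bins, between antibodies within each condition. For comparison, 60 of the 70 autosomal domains of the control ab176916 list could be matched between the 4 lists, each with 2 limits. Domains that did not overlap a single domain in every other list were left out, so the shares below do not cover them. Of these 120 limits, 83 (69.2%) were identical in the 4 libraries, 14 (11.7%) differed by antibody alone, 2 (1.67%) differed by condition alone and 21 (17.5%) differed in other ways. The limit of the CDH8 domain away from the short arm was among the 14. Its shift ranked 2 among them, where the median was 0.2 Mb and the largest 1.4 Mb. Over all 120 limits, 3 moved further and 24 moved by a single bin.

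CDH11 is the neighbour of CDH8 on the side of that shifting limit. It encodes cadherin-11, a type II cadherin best known from osteoblasts and other mesenchymal cells. The gene is on the minus strand at chr16:64943753-65126112 (ENSG00000140937.14) and spans 182.4 kb. With ab176916 the domain covered 56.2 kb, or 30.8% of the body, in control and in RAB5A cells. With ab8898 it covered 0% in both, and the gene lay 0.944 Mb from the domain. The covered part was the 3′ end, and the start lay outside by 0.126 Mb (ab176916) or 1.13 Mb (ab8898). The distance with ab176916 is smaller than 1 bin, so the calls do not resolve on which side of that limit the start lies.

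The covered part of CDH11 is short but holds most of its exons. With the ab176916 limit as called, 10 of 13 exons of the canonical transcript and 2160 of 2388 bp of coding sequence (90.5%) were inside. The limit fell in the intron between exon 3 and exon 4, at 4.64 kb from exon 3 and 1.14 kb from exon 4. The whole overlap is smaller than 1 bin, so the calls do not resolve on which side of the limit any single exon lies. CDH11 is the member just inside the 1 bp criterion with ab176916, and CDH5 is the next one outside it.

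The domain of CDH8 and CDH11 is a gene desert. It held 1 protein-coding gene (CDH8) in the ab8898 libraries and 2 (with the end of CDH11) in the ab176916 libraries, or 0.192 and 0.323 per Mb. Chromosome 16 as a whole has 9.49 protein-coding genes per Mb. The 5.2 Mb called in 4 of 4 libraries also held 15 long non-coding RNA genes and 16 pseudogenes, which is 2.88 and 3.08 per Mb against 10.5 and 5.63 on the chromosome. The nearest protein-coding gene beyond the limit on the side of the short arm was GOT2, the mitochondrial aspartate aminotransferase, at 65.7 kb. On the other side, beyond CDH11, it was CDH5, at 1367 kb from the ab176916 limit.

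Apart from 1 gap of 12.2 Mb (16:34381111-46578590), the 3 longest gaps between protein-coding genes of chromosome 16 lie beside these genes. They are 2.91 Mb between GOT2 and CDH8, 2.91 Mb between CDH8 and CDH11, and 1.24 Mb between CDH11 and CDH5. Within 1 Mb of the body of CDH8 there is no other protein-coding gene, and the same is true of CDH11. The other members have 22 (CDH13) to 59 (CDH16) such neighbours within 1 Mb. GC content, CpG density and gene spacing were not used to choose the members.

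**Figure D2:**
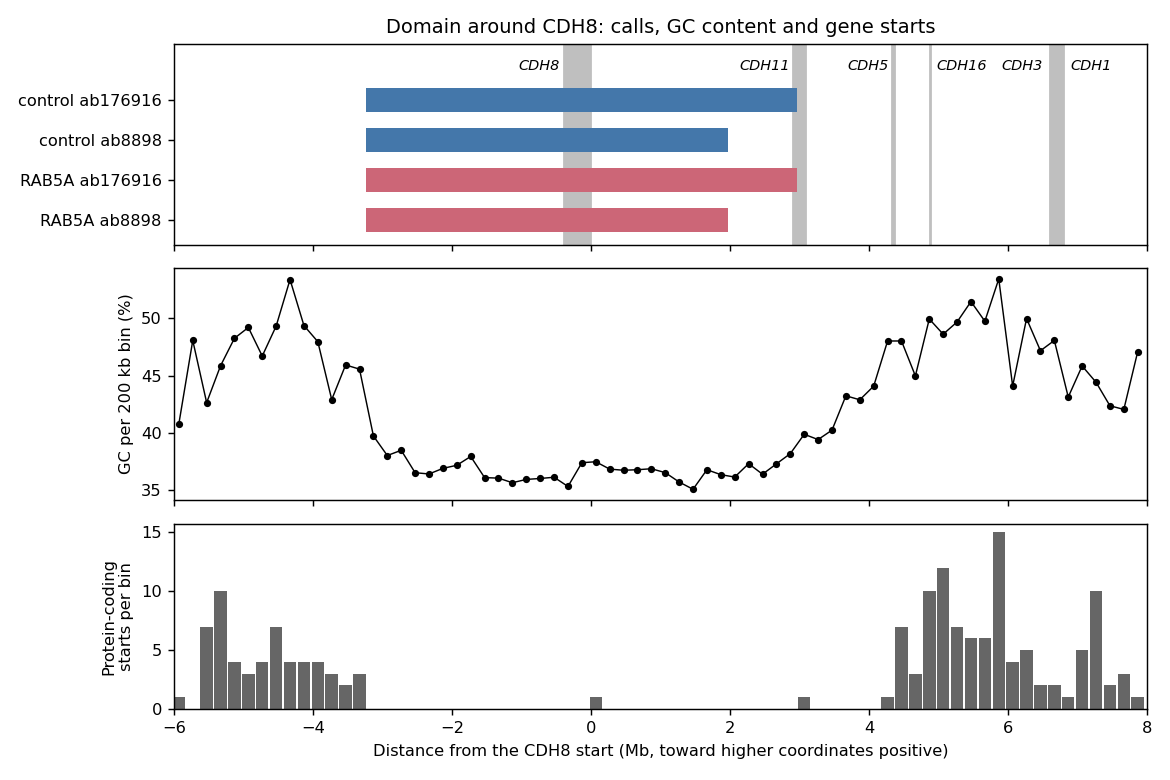
Top, domain calls in the 4 libraries (bars) with gene bodies in grey; middle, GC content (%) of each 200 kb bin; bottom, protein-coding gene starts per bin, all by distance in Mb from the CDH8 start. GC content is between 35.1% and 39.7% throughout the stretch called in the 4 libraries, where 1 bin holds a gene start.

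The sequence of the domain was poor in GC. The stretch called in 4 of 4 libraries had 36.7% GC, against 44.6% for chromosome 16, and its 26 bins ranged from 35.1% to 39.7%. CpG dinucleotides numbered 6.44 per kb there and 14.1 per kb on the chromosome. The limit shared by the 4 libraries sat at a step in composition. The 1 Mb before it had 46.4% GC and touched 16 protein-coding genes, with bins from 42.9% to 49.4%. At the ab8898 position of the other limit there was no such step. The 1 Mb called with ab176916 only (16:64000001-65000000) had 37.1% GC, with bins from 36.2% to 38.2%, close to the rest of the domain. The 1 Mb beyond the ab176916 position had 41.1%, with bins from 39.4% to 43.2%, and is where CDH11 starts.

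Among the autosomal domains of its own list, that of CDH8 was one of the longest and one of the poorest in genes and GC. By length it ranked 3 of 70, 8 of 68, 4 of 71 and 8 of 69. By GC content it ranked 7 from the lowest in each list, where the medians lay between 42.2% and 42.6%. By protein-coding genes per Mb it ranked 8, 7, 8 and 7 from the lowest, and 5, 6, 5 and 6 domains of the lists held none. Among the 3, 8, 4 and 8 domains at least as long, it had the fewest protein-coding genes per Mb in each list. The others in that comparison held 0.541 to 4.24 per Mb.

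**Figure D3:**
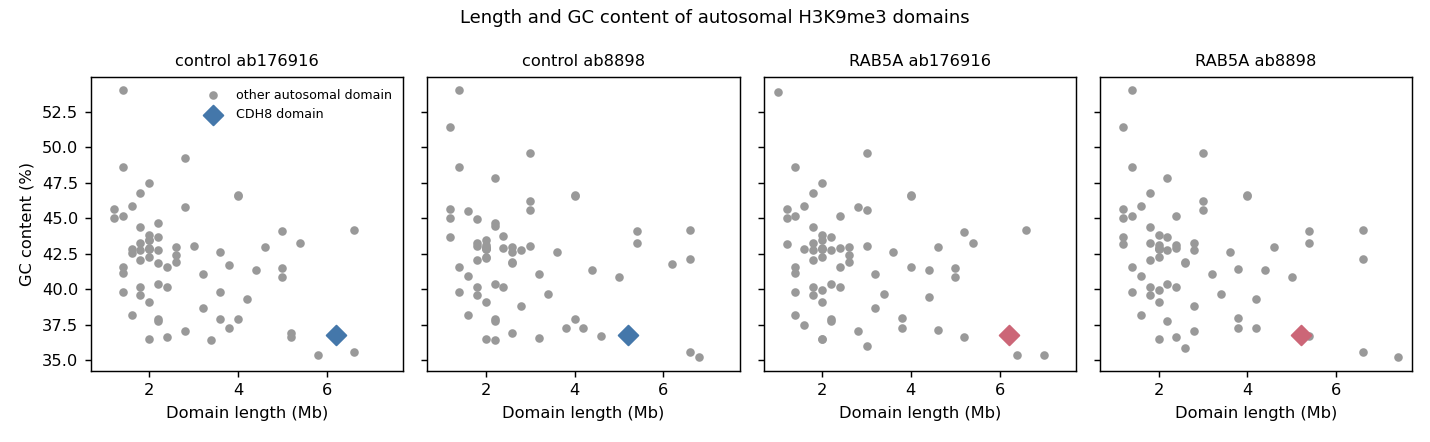
GC content (%) against length (Mb) of each autosomal H3K9me3 domain in the 4 libraries (grey points), with the domain that holds CDH8 as a coloured diamond. In each library the diamond sits at long length and low GC content, at 36.8% (ab176916) or 36.7% (ab8898).

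On chromosome 16 it was the longest of 7 domains in each list and made up 31% (ab176916) or 27.1% (ab8898) of the covered sequence. Its score, which is the caller's own and is read here only within a list, was 23.7, 23.01, 21.5 and 21.9. That was the second highest on the chromosome in each list. Divided by the number of bins, the score was 0.765, 0.885, 0.694 and 0.840, and it was the lowest of the 7 in each list. The other domains of the chromosome had 0.917 to 1.41, 1.15 to 1.62, 1.03 to 1.43 and 1.13 to 1.56 per bin.

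**Figure D4:**
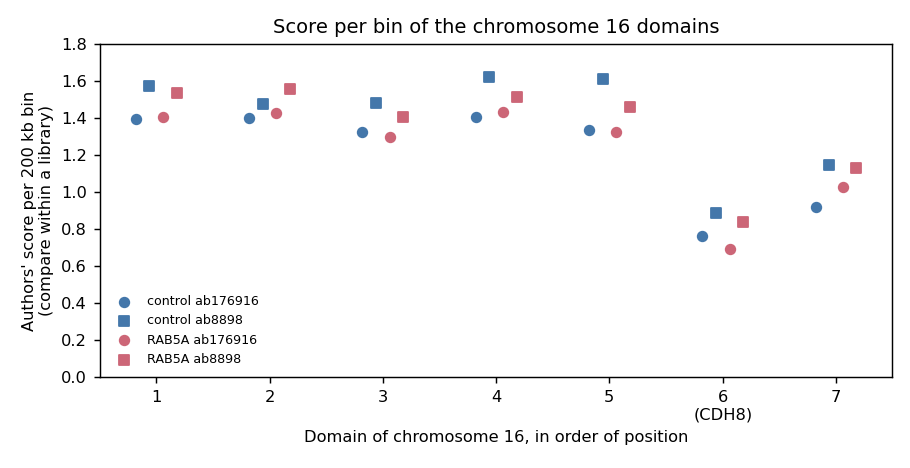
Score per 200 kb bin, without a stated unit, of the 7 chromosome 16 domains in order of position, in the 4 libraries (circles, ab176916; squares, ab8898). Within each library domain 6, which holds CDH8, is the lowest, and values are not compared between libraries.

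The coverage of chromosome 16 outside the CDH8 domain was compared between conditions. It amounted to 13.8, 14, 13.8 and 14 Mb. Each condition thus averaged 13.9 ± 0.141 Mb (SD, n = 2), and the difference was 0 Mb (exact two-sided permutation test, p = 1). With 2 libraries against 2 this test cannot give a p below 0.33, so it does not show that the conditions are alike. The equal sums hide opposite shifts of 0.2 Mb with ab8898, where the domain of XYLT1 began earlier in control (16:16200001) than in RAB5A cells (16:16400001) and the domain of WWOX began later (16:77600001 against 16:77400001). The latter is the domain nearest to CDH13 and CDH15, so this coverage is not wholly independent of how the genes were chosen. Without it the coverage was 11.6, 12, 11.6 and 11.8 Mb, and RAB5A minus control was -0.1 Mb (11.8 ± 0.283 in control, 11.7 ± 0.141 in RAB5A, n = 2, exact permutation p = 1), a comparison added after the data were seen.

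The remaining type II member is CDH5, or VE-cadherin, the adhesion protein of endothelial junctions. It lies at chr16:66366690-66404784 and spans 38.1 kb. It was 1.37 Mb from the domain with ab176916 and 2.37 Mb with ab8898, in both conditions. Within 1 Mb of its body lie 40 other protein-coding genes, against 0 around CDH8 and CDH11, so CDH5 is the first member on the gene-dense side of the gap.

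The type I classical members were CDH1, CDH3 and CDH15. CDH1 encodes E-cadherin, which holds epithelial sheets together and is a tumour suppressor in the breast. It lies at chr16:68737292-68835537 and was 3.74 Mb (ab176916) or 4.74 Mb (ab8898) from the nearest domain in both conditions. CDH3 encodes P-cadherin, found in basal epithelia, and lies 9.82 kb before CDH1 at chr16:68636189-68727468. Its distances were 3.64 and 4.64 Mb. No domain came nearer to this pair in RAB5A than in control cells with either antibody. CDH15 encodes M-cadherin of muscle and lies at chr16:89171748-89195492. It was the farthest from a domain of the 8 genes, at 9.57 Mb in each library.

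The members outside the classical types were CDH13 and CDH16. CDH13 encodes T-cadherin, which lacks a cytoplasmic part and is held in the membrane by a lipid anchor. At 1174 kb (chr16:82626965-83800640) it is the second longest protein-coding gene of the chromosome, yet it lay 3.03 Mb from the nearest domain in each library. CDH16 encodes KSP-cadherin of the kidney and lies at chr16:66908122-66918917. It was 1.91 Mb (ab176916) or 2.91 Mb (ab8898) from the domain in both conditions.

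**Figure D5:**
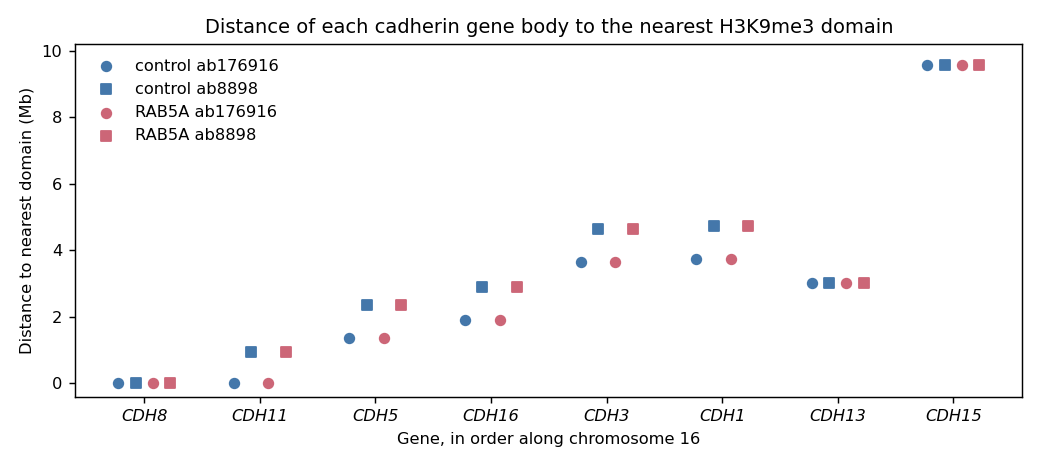
Distance in Mb from the body of each cadherin gene to the nearest domain in control (blue) and RAB5A (red) libraries made with ab176916 (circles) or ab8898 (squares). For CDH11, CDH5, CDH16, CDH3 and CDH1 the squares lie 0.944 to 1 Mb above the circles, and the colours coincide for each antibody.

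Averaged over both libraries of a condition, the distance was 0.472 ± 0.667 Mb for CDH11, 1.87 ± 0.707 Mb for CDH5, 2.41 ± 0.707 Mb for CDH16, 4.14 ± 0.707 Mb for CDH3 and 4.24 ± 0.707 Mb for CDH1 (SD, n = 2), with the same values in control and RAB5A cells. The spread is the shift of the limit between antibodies, which these genes share. Within each library CDH16 lay 0.541 Mb farther from the domain than CDH5, and CDH1 0.101 Mb farther than CDH3. CDH8, CDH13 and CDH15 had no spread. For 5 of the 8 genes the distance is measured to the same limit, so these are not independent measurements.

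GC content of the gene body was 36.8% for CDH8, 40.4% for CDH11 and 42.2% for CDH13, and between 46.9% (CDH1) and 62.6% (CDH15) for the other 5. The order of length was similar. CDH13, CDH8 and CDH11, the lowest in GC, were the longest, and CDH1, CDH3 and CDH5 followed. CDH15 and CDH16, the richest in GC, were the shortest, with CDH16 at 10.8 kb. The relation of length to GC content was not tested.

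Listed cadherin genes of other autosomes were counted in the same way, and the lists hold no protocadherins. Of 39 further genes of the superfamily lists (classical, desmosomal, large and other cadherins and calsyntenins), 0 overlapped a domain in 3 libraries and 1 did in the control ab176916 library. The share of all protein-coding genes was 7.38% to 8.32%, and 4.54% to 4.83% on the autosomes, and the difference from these shares was not tested. That gene was CDHR1, a photoreceptor cadherin on chromosome 10 (chr10:84194537-84219621), of which 5.46 kb (21.8%), with its start, were covered. That overlap too is smaller than a bin. By type, 0 of 5 type I and 0 of 7 desmosomal cadherins overlapped a domain in any library, and of 13 type II cadherins CDH8 and CDH11 were the ones that did. The lists of 5 and 7 genes would each hold fewer than 1 such gene at these shares, so nothing is read from their zeros.

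Among 12 catenins and related armadillo proteins, 1 gene was in a domain, which at this list size is close to the same shares. It was CTNNA2, which encodes the alpha-catenin of neurons. It spans 1464 kb on chromosome 2 (chr2:79185231-80648861), and 100% of its body was covered in 4 of 4 libraries. Of 5 repressors of CDH1 of the SNAI, ZEB and TWIST families, 0 overlapped a domain in any library, from which nothing is read either, given 4.54% to 4.83% of autosomal genes.

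In 771 other autosomal protein-coding genes the whole body was covered in the 4 libraries, as for CDH8. Among the 5 closest to it in length were RIMBP2 (372.1 kb), DNAH9 (371.3 kb), XYLT1 (369.2 kb) and CHODL (366.1 kb). RIMBP2 encodes a presynaptic scaffold protein, DNAH9 an axonemal dynein, XYLT1 a xylosyltransferase of proteoglycan synthesis and CHODL a membrane lectin. XYLT1 is in another domain of chromosome 16. The body of CHODL had 37.0% GC, against 36.8% for CDH8.

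RefSeq promoter windows on GRCh38.p14, of which the 250 bases before a start were used, were found for 1 of the 8 members, CDH8, and for these 4 genes. CDH8 has 2 windows, with 19 and 17 CpG. The first (chr16:62036439-62036688) lies directly ahead of the canonical start and inside the first exon of a longer transcript, and it is described by its counts only. The second (chr16:62035187-62035436, minus strand) lies in the first intron of the canonical transcript. For each gene the window with the most CpG among those outside annotated UTRs is printed, so that the CpG content of starts inside domains can be seen. The others are XYLT1 (chr16:17470961-17471210, minus strand), DNAH9 (chr17:11598220-11598469, plus strand), CHODL (chr21:18244583-18244832, plus strand) and RIMBP2 (chr12:130715574-130715823, minus strand). Each CpG is in capitals.
CDH8: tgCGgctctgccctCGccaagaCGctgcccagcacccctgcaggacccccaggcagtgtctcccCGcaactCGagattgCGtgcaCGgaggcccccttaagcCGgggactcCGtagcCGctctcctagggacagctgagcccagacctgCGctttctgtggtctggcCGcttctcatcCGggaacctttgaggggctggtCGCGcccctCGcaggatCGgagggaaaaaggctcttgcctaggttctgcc
XYLT1: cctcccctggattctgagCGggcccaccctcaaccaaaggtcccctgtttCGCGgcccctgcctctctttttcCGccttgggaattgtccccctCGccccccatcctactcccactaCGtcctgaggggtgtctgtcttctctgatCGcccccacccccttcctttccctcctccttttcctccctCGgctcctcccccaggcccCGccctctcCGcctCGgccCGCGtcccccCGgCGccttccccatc
DNAH9: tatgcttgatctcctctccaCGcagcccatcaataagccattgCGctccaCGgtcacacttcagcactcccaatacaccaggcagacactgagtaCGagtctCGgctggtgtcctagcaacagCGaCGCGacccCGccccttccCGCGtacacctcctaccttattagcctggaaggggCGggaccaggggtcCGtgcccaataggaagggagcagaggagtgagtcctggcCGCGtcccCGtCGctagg
CHODL: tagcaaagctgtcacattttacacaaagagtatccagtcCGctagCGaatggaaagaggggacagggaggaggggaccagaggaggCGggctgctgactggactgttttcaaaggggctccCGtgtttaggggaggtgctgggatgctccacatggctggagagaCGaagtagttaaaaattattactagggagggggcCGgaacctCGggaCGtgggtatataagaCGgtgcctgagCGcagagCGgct
RIMBP2: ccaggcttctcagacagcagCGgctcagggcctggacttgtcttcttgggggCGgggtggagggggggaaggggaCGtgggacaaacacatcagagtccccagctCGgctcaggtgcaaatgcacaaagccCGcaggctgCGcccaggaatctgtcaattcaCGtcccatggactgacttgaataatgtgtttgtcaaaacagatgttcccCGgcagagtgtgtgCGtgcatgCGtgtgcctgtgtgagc

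The printed windows have 17 (CDH8), 15 (XYLT1), 17 (DNAH9), 11 (CHODL) and 10 CpG (RIMBP2). Their GC content is 66.0%, 67.6%, 61.2%, 55.2% and 58.8% in the same order. The further windows of DNAH9, CHODL and RIMBP2 have 1 to 10 CpG. The CDH8 window thus has 66.0% GC within a domain of 36.7% to 36.8%. The window richest in CpG was taken for each gene. The median was 12 CpG over 597 genes wholly covered in the 4 libraries, CDH8 included. It was 20 CpG over 13868 genes with no overlap. At least 19 CpG, the count of the richer CDH8 window, were found in 32.3% of the former and 54.9% of the latter. The median GC content of these windows was 58.0% for the wholly covered genes and 64.4% for those with no overlap. The richer CDH8 window had 64.0%, so a GC content far above that of the domain is usual for such windows. The motif CACCTG, read on both strands as CACCTG or CAGGTG, is the E-box that SNAI and ZEB repressors bind at the CDH1 promoter. Neither CDH8 window held these letters, and 17.5% of all 35116 windows did.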

How the data were processed

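H3K9me3 ChIP-seq domain lists of 2 control and 2 RAB5A libraries of MCF10.DCIS.com cells were used. The 2 input libraries were not analysed here. The authors trimmed reads with Trimmomatic (0.39), aligned them to hg38 with BWA (0.7.17-r1188), marked duplicates with Picard (2.22), and removed these and reads of mapping quality below 1 with SAMtools (1.9). They called domains per library against input with EDD, with bins of 200 kb, an exclusion list of unalignable regions, a gap penalty of 25 and a required fraction of informative bins of 0.98. The deposited lists give limits and a score per domain, with no stated unit, which was read only within a list. A larger gap penalty separates neighbouring stretches, so limits depend on it, and signal below the threshold is not visible.

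Gene bodies, exons and outermost starts were taken from GENCODE 44 and base composition from hg38. Python 3.11.15 was used with NumPy 2.4.6 and pandas 2.3.3 for overlaps (at least 1 bp), distances and ranks, and the interval steps were checked on simulated domains. Coverage was compared by an exact permutation test over 6 labellings. The members and lists were chosen with earlier results of these data known. Named genes are the 8 members, the protein-coding genes in or beside the CDH8 domain, listed cadherins and partners that overlap a domain, and the 5 autosomal genes most like CDH8 in covered share, then in log2 length, of which 1 is not reported here. RBFOX1, WWOX and HS3ST4 were named after their values were seen. Libraries of the same number share an antibody, as the labels state. Over 1084 autosomal bins called in any library their deviations from the group means correlated with Pearson's r of 0.335.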

Additional observations from a re-analysis of the deposited data

How the results depend on the processing

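Of 83 values computed under alternatives for 18 results, 76 were scored as the same and 7 as moved. The criterion was 1 SD of the replicates or 1.5 times the count. For distances to the shifting limit of the CDH8 domain that SD is the shift between antibodies, which makes the criterion wide. CDH11 thus scored as the same with a mean of 0.626 Mb from its start against 0.472 Mb from its body. Most alternatives for chromosome 16 coverage were instead scored by an exact test. Those could not score as changed, since the test cannot reach significance with 4 libraries and the main difference was 0 Mb. Reversal was defined for that result alone, so none could occur. Requiring a covered start, or at least 50% of the body, lowered the member count from 2 to 1 in both ab176916 libraries. There CDH11 is covered by 30.8% at its 3′ end, and its start lies outside by 0.126 Mb, which is less than 1 bin. For the same reason the count over the superfamily lists fell from 2 to 1 in the RAB5A ab176916 library under both criteria. In the control ab176916 library it fell from 3 to 1 with 50% of the body, and to 2 with the start. No domain was shorter than 1 Mb, so that minimum length could change no value. The 200 kb margin, merging of domains closer than 400 kb, the filter on scores below the lower quartile and a minimum length of 1 Mb changed no count of members. The RAB5A minus control difference in the length of the CDH8 domain was 0 Mb under merging, with the replicate block by antibody and without either replicate. The difference in chromosome 16 coverage outside it was 0 Mb under the same alternatives, the score filter and the minimum length. In the block by antibody the exact sign-flip p was 1, since both pairs had equal coverage. There 2 pairs cannot give a p below 0.5. Without the domain nearest CDH13 and CDH15 the difference was -0.1 Mb (added after the data were seen), and no sign-flip test was run on it. These lists limit precision by their 200 kb bins, and depth is unknown.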

Other observations

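Among the 12 protein-coding genes of chromosome 16 at least as long as CDH8, 4 were wholly covered in the 4 libraries. These were RBFOX1, a neuronal splicing regulator, WWOX, an oxidoreductase gene at a common fragile site, HS3ST4, a heparan sulfate sulfotransferase, and CDH8. The other 8, CDH13 among them, had 0% of their body covered in each library. The cut-off is the length of CDH8 itself, so this covered gene is counted in by definition. Of all protein-coding genes of the chromosome 3.97% to 5.02% were wholly covered in a library, and the difference was not tested. The pair of CDH13 (1174 kb, 42.2% GC) and WWOX (1113 kb, 42.6% GC) was picked after the values were seen. Over all autosomes 507 genes, CDH8 included, were at least as long as CDH8, and 25 of them (4.93%) were wholly covered in the 4 libraries, against 772 of all 19111 autosomal genes (4.04%). By the 1 bp criterion the shares of these 507 genes were 7.89%, 7.69%, 7.50% and 7.50%. Those of all autosomal genes were 4.54%, 4.83%, 4.59% and 4.80%, and the difference was not tested.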
